A study of Mus with 9 samples.

Results

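Genes grouped under retinoid synthesis and binding were followed across mouse kidney libraries of 3 groups. They are 9 of the 54532 genes in the deposited table: the Aldh1a family (Aldh1a1, Aldh1a2, Aldh1a3 and Aldh1a7), the retinol dehydrogenases Rdh10 and Dhrs9, and the binding and uptake genes Rbp4, Stra6 and Crabp2. They were chosen by name, because Aldh1a1 stood out at 21 months against 18 months in these same libraries. The levels of the genes in that comparison are therefore given as a description, with no interval, and the calls counted there are read for nothing. The comparisons with O304 share its libraries. For Aldh1a1, its choice by a high 21 mo and a low 18 mo level favours O304 levels below 21 mo and above 18 mo. The intervals and p-values given below do not allow for this.

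RNA sequencing was performed on kidneys of male C57BL/6 mice, with 3 libraries in each group. All mice had undergone unilateral nephrectomy at 18 months of age. Mice of the 18 mo group were taken 1 week after that operation. The 21 mo group received 0.9% sodium chloride solution intraperitoneally for 12 weeks, and the 21 mo/O304 group received O304, an activator of the energy sensor AMPK, at 10 mg/kg/day by the same route for 12 weeks. Age, time since surgery and injections all differ between the 18 mo group and the others, so their shares in a difference cannot be told apart. Neither the labels nor the methods tie each library to its own mouse in so many words, so that the p-values below measure the spread between libraries, part of which may be technical.

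Retinol is carried in plasma by retinol binding protein, RBP4, and can enter cells through the membrane receptor STRA6. Inside the cell it is oxidised first to retinal, by dehydrogenases such as RDH10 and DHRS9, and then irreversibly to retinoic acid by enzymes such as ALDH1A1 and ALDH1A2. Retinoic acid is passed by CRABP2 to nuclear receptors of the RAR family, which act as dimers with RXR, and it is removed by CYP26 enzymes. In the kidney this pathway is known for its part in nephron and collecting duct development, and the proximal tubule takes filtered RBP4 back up through megalin.

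The libraries held 15636378 to 18396725 counts each, so that 1 count was worth 0.0458 to 0.0669 CPM, the counts scaled to a common library size with TMM factors. Markers of proximal tubule, collecting duct, podocyte and endothelium were present in every library, as were those of the thick limb and distal tubule except Pvalb, which was at 0 in 21 mo replicate 3. The 21 mo libraries were the least alike. The correlation of log2 CPM between 21 mo replicates 1 and 3 was 0.881, against 0.935 to 0.983 for every other pair within a group. Summed over 7 proximal tubule markers, the level was 10561, 4866 and 1378 CPM in 21 mo replicates 1, 2 and 3, against 10289 to 12756 CPM in the 18 mo and 10731 to 11940.4 CPM in the 21 mo/O304 libraries. Over 7 fibroblast markers, the sum was 140.3, 575 and 1389 CPM in the same 21 mo libraries, against 181 to 279 CPM at 18 mo and 116 to 266 CPM with O304. Injured tubule markers (8 genes) summed to 1416, 12477 and 14748 CPM in the 21 mo libraries and to 784 to 1194 CPM in the other 6. Most of these sums was Spp1, at 1235, 11162 and 12555 CPM in the 21 mo libraries and 614 to 1002 CPM in the other 6. So in the sums of its proximal tubule and fibroblast markers 21 mo replicate 1 was near the other groups, and 21 mo replicate 3 was the farthest from them. Single proximal tubule markers of 21 mo replicate 1 went both ways. In that library Slc34a1 was at 3510.4 CPM, below the lowest 18 mo (4593 CPM) and O304 (4114 CPM) levels. Lrp2 was at 3219 CPM there, above the highest 18 mo (2481 CPM) and O304 (2831 CPM) levels. In tissue RNA, fewer cells of a type and less RNA per cell cannot be told apart.

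Aldh1a1, an enzyme that oxidises retinal to retinoic acid, was the member with the clearest separation of the groups. It was at 14.9, 14.2 and 14.8 CPM in 18 mo replicates 1 to 3, at 69.6, 64.7 and 48.2 CPM in the 21 mo libraries, and at 29.5, 21.8 and 26.3 CPM with O304. The 3 groups did not overlap, in the order 18 mo, 21 mo/O304, 21 mo. The group means were 14.6 ± 0.374, 25.9 ± 3.85 and 60.9 ± 11.2 CPM in that order (SD, n = 3). The 18 mo libraries differed from each other by very little, with a coefficient of variation of 2.56%, against 18.5% at 21 mo and 14.9% with O304.

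**Figure D1:**
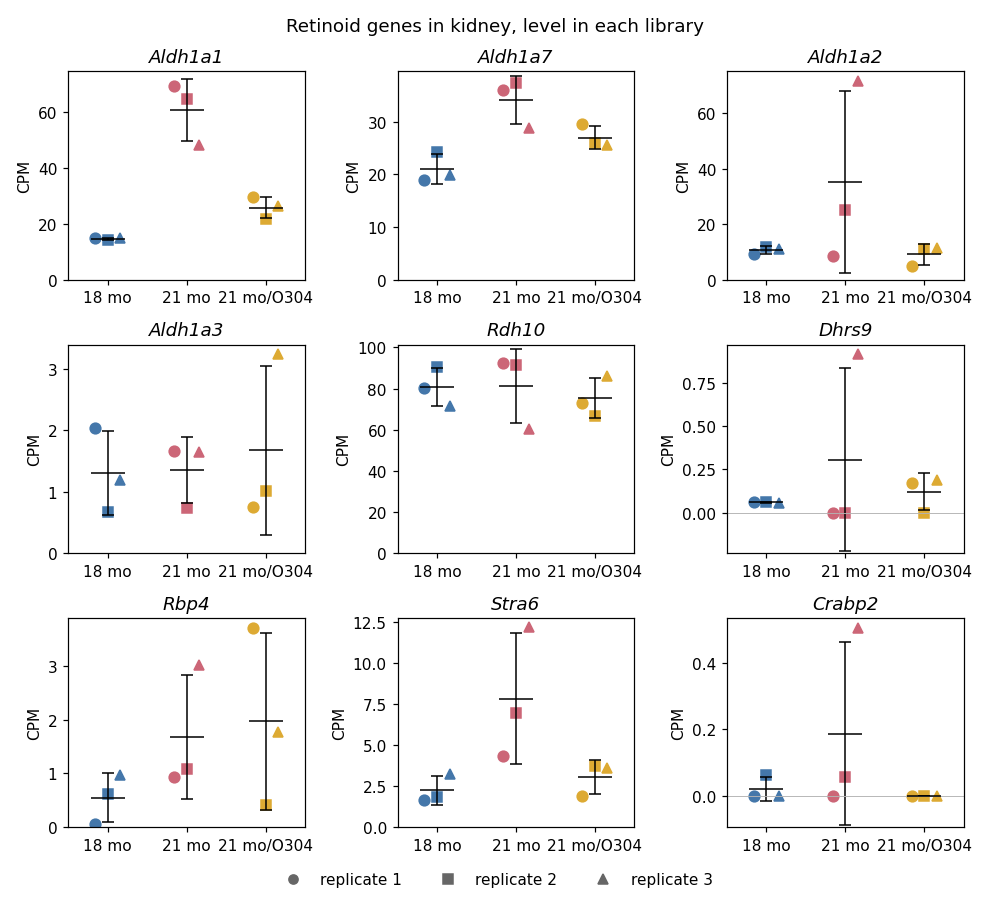
Level of the 9 retinoid genes in CPM (y axis, its own scale in each panel) by group (18 mo, 21 mo, 21 mo/O304); each point is 1 library, its shape the replicate number, and the bars are the mean ± SD of 3 libraries. Aldh1a1 sits at 14.2 to 14.9 CPM at 18 mo, 21.8 to 29.5 CPM with O304 and 48.2 to 69.6 CPM at 21 mo, while Aldh1a2 reaches 71.9 CPM in 21 mo replicate 3 only.

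At 21 mo the fitted level of Aldh1a1 was 2.06 higher than at 18 mo on the log2 scale, a fold of 4.17 between the means. This is the difference by which the genes were chosen. It was 1.97 without 21 mo replicate 1 and 2.18 without 21 mo replicate 3, the library with the most fibroblast and the least proximal tubule signal. The highest Aldh1a1 level of all was in 21 mo replicate 1. Its proximal tubule marker sum was within the 18 mo range, though single markers of that list went both ways. Its fibroblast marker sum, 140.3 CPM, was below the 18 mo range of 181 to 279 CPM. In that library the sum of the injured tubule markers was 1416 CPM, against 786 to 915 CPM at 18 mo. This difference was mostly that of Spp1, at 1235 CPM there and 614 to 742 CPM at 18 mo. The sum of 6 macrophage markers was 384 CPM in that library, against 195 to 287 CPM at 18 mo. The part of these cells in the level of Aldh1a1 was not tested.

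With O304, Aldh1a1 was at 0.425 times its 21 mo level, a difference of -1.23 on the log2 scale (SE 0.16, 95% interval -1.63 to -0.83). The choice of the gene by its high 21 mo level favours this direction, and the interval does not allow for that choice. Each of the 3 O304 libraries was below each of the 3 21 mo libraries. The difference did not pass the test across all genes (edgeR adjusted p = 0.150), and the exact permutation p was 0.1, the smallest that 3 against 3 libraries can give. DESeq2 and limma voom with sample quality weights called it, beside 5.20% and 41.1% of all genes. edgeR called it when every gene with at least 1 count was tested (log2 difference -1.25, beside 0.0602% of all genes). It was also called without 21 mo replicate 1 (log2 difference -1.13, beside 23.1%) or without 21 mo replicate 3 (-1.37, beside 0.00620%). Over all the alternatives its adjusted p ranged from 5.73e-06 to 0.400. Against 18 mo, the O304 libraries were higher by 0.82 (SE 0.17, 95% interval 0.42 to 1.23) and again all on 1 side, with an edgeR adjusted p of 0.323 and an exact permutation p of 0.1.

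Aldh1a1 lies at chr19:20492715-20643462 on the plus strand of GRCm38, and Aldh1a7, its rodent paralogue, at chr19:20692953-20727562 on the minus strand, 49490 bases further on. An antisense gene and a processed pseudogene inside the span of Aldh1a1 had 0 counts in every library. How the counting treated reads that map to several places is not given in the sources used here, so counts of Aldh1a1 and Aldh1a7 that could belong to either are uncertain. The kit named in the labels does not mark strand.

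Aldh1a7 had the same order of group means over a smaller range. Its levels were 18.9, 24.2 and 19.9 CPM at 18 mo, 36.1, 37.3 and 28.9 CPM at 21 mo, and 29.5, 26.0 and 25.5 CPM with O304. The 18 mo libraries were below all others, while the 21 mo and O304 libraries overlapped, since 21 mo replicate 3 was below O304 replicate 1. Fitted, the 21 mo level was 0.70 above 18 mo, a fold of 1.62. The O304 level differed from 21 mo by -0.34 on the log2 scale (SE 0.15, edgeR adjusted p = 0.236, exact permutation p = 0.2), and from 18 mo by 0.36 (SE 0.15, edgeR adjusted p = 0.479, exact permutation p = 0.1). Neither difference passed the threshold.

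The ratio of Aldh1a1 to Aldh1a7, both per length as FPKM, was 0.329, 0.245 and 0.311 at 18 mo, 0.807, 0.727 and 0.699 at 21 mo, and 0.419, 0.352 and 0.432 with O304. The ratio separated all 3 groups, like Aldh1a1 alone, which is its numerator and the gene of the choice, so this is no separate support. As counted, the neighbours did not differ between groups by the same factor. The log2 ratio was 1.34 higher at 21 mo than at 18 mo. With O304 it differed from 21 mo by -0.90 (exact permutation p = 0.1) and from 18 mo by 0.45 (exact permutation p = 0.1). In 21 mo replicate 3, the library lowest in Aldh1a1 within its group, the ratio was also the lowest of the group, but still above every library of the others.

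Aldh1a2 encodes a further retinal-oxidising enzyme, known as the main source of retinoic acid in the embryo and expressed in mesenchyme and mesothelium. It was at 9.23, 11.8 and 11.2 CPM at 18 mo, at 8.50, 25.0 and 71.9 CPM at 21 mo, and at 4.77, 11.1 and 11.4 CPM with O304. Replicate 1 of the 21 mo group was below every 18 mo library, and its replicates 2 and 3 were above every library of the other groups. The mean was 35.1 ± 32.9 CPM at 21 mo (SD, n = 3), against 10.8 ± 1.36 CPM at 18 mo and 9.10 ± 3.76 CPM with O304. The fitted difference of 21 mo from 18 mo, 1.71, was 0.62 without 21 mo replicate 3 and 2.19 without 21 mo replicate 1. For O304 against 21 mo it was -1.95 (SE 0.66, edgeR adjusted p = 0.185, exact permutation p = 0.3), and -0.87 without 21 mo replicate 3. Without 21 mo replicate 1 it was -2.43 and passed in edgeR, as did 23.1% of all genes. For O304 against 18 mo it was -0.24 (SE 0.65, edgeR adjusted p = 0.943, exact permutation p = 0.6). The high values were thus those of 2 libraries of the 21 mo group. It lies at chr9:71215789-71296243 on the plus strand, where the annotation places an overlapping gene, Gm48124.

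Aldh1a3 (chr7:66390890-66427517, minus strand), the remaining enzyme of the family, was low in every group. Its level ran from 0.678 to 2.04 CPM at 18 mo, 0.739 to 1.67 CPM at 21 mo and 0.756 to 3.25 CPM with O304. All 3 ranges overlapped. The differences were 0.06 for 21 mo against 18 mo, 0.30 (SE 0.64, edgeR adjusted p = 0.797) for O304 against 21 mo and 0.35 (SE 0.65, edgeR adjusted p = 0.907) for O304 against 18 mo, and the 95% interval of O304 against 21 mo, -1.28 to 1.87, leaves differences in either direction possible.

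Per length, the 4 family members summed to 16.0, 19.6 and 17.3 FPKM at 18 mo, 34.6, 41.1 and 53.7 FPKM at 21 mo, and 21.8, 21.5 and 22.7 FPKM with O304. The sum, which includes Aldh1a1, also separated the groups, but its make-up differed among the 21 mo libraries. Activity on retinal was not measured, so the sum does not stand for retinoic acid synthesis. Aldh1a1 made up 39.5%, 31.0% and 17.5% of the sum in 21 mo replicates 1, 2 and 3, against 14.4% to 18.1% at 18 mo and 20.0% to 26.5% with O304. Aldh1a2 made up 10.5%, 26.1% and 56.9% in the same 21 mo libraries, against 24.4% to 27.8% at 18 mo and 9.35% to 22.2% with O304. Aldh1a7 was the largest share at 18 mo (54.0% to 58.7%) and with O304 (52.7% to 63.4%), and in 21 mo replicates 1 and 2 (49.0% and 42.6%), but not in 21 mo replicate 3 (25.0%). In that library the family was mostly Aldh1a2, and in replicate 1 it was mostly Aldh1a7 and Aldh1a1.

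**Figure D2:**
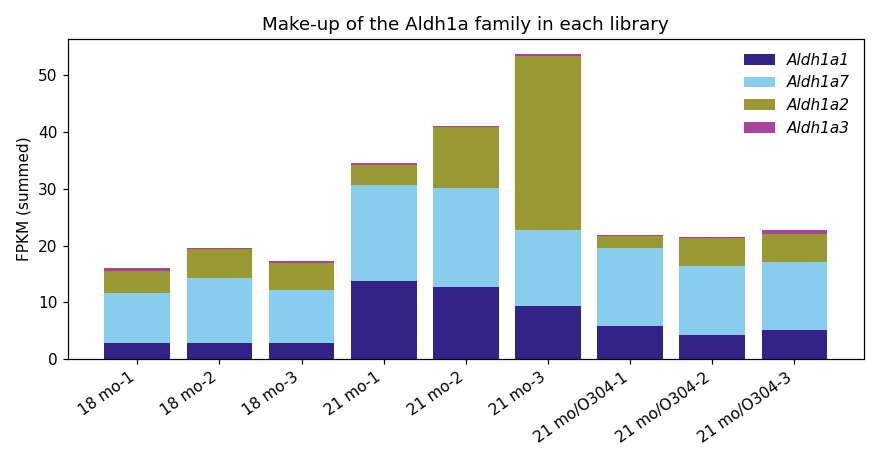
FPKM (y axis) of the 4 Aldh1a genes stacked in each of the 9 libraries (x axis). The stacks reach 34.6 to 53.7 FPKM at 21 mo and 16.0 to 22.7 FPKM in the other 6 libraries, and Aldh1a2 takes 56.9% of the stack in 21 mo replicate 3 against 10.5% in 21 mo replicate 1.

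Of the genes for the preceding step, Rdh10 (chr1:16105774-16133734, plus strand), which oxidises retinol to retinal, had the highest group means of all 9 members per length, with 18.9 FPKM at 18 mo, 18.9 FPKM at 21 mo and 17.6 FPKM with O304. Its levels were 80.5, 90.3 and 71.8 CPM at 18 mo, 92.3, 91.3 and 60.3 CPM at 21 mo, and 73.1, 66.9 and 86.1 CPM with O304. The groups overlapped throughout. The difference was 0.01 for 21 mo against 18 mo, -0.11 for O304 against 21 mo (SE 0.19, 95% interval -0.56 to 0.34, edgeR adjusted p = 0.740) and -0.10 for O304 against 18 mo (SE 0.19, edgeR adjusted p = 0.907). The sign of the first turned with the library left out, from -0.10 to 0.17.

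Dhrs9 (chr2:69380445-69404533, plus strand), a short-chain dehydrogenase that also acts on retinol, was near the limit of detection. It had 1 count in each 18 mo library, 0, 0 and 20 counts in the 21 mo libraries, and 3, 0 and 3 counts with O304. A count of 0 allows up to 3 counts, here 0.201 CPM in 21 mo replicate 1 and 0.170 CPM in 21 mo replicate 2, by counting error alone. The 20 counts were all in 21 mo replicate 3, and the gene did not pass the filter on low counts.

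Among the binding and uptake genes, Stra6, the membrane receptor for RBP4, was at 1.61, 1.85 and 3.22 CPM at 18 mo, 4.35, 6.93 and 12.2 CPM at 21 mo, and 1.86, 3.70 and 3.57 CPM with O304. The 21 mo libraries lay above all others, and the 18 mo and O304 libraries overlapped. The 21 mo level was higher than the 18 mo level by 1.81, by 1.32 without 21 mo replicate 3 and by 2.20 without 18 mo replicate 3. O304 differed from 21 mo by -1.37 (SE 0.45, 95% interval -2.48 to -0.26), with an edgeR adjusted p of 0.182 and an exact permutation p of 0.1. Without 21 mo replicate 1 the difference was -1.67 and passed in edgeR, as did 23.1% of all genes. From 18 mo, O304 differed by 0.44 (SE 0.46, edgeR adjusted p = 0.807, exact permutation p = 0.2). Stra6 lies at chr9:58063788-58153996 on the plus strand and overlaps Ccdc33 and Gm16131, and reads from overlapping exons cannot be assigned without strand.

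Rbp4 (chr19:38116620-38125321, minus strand), the plasma carrier of retinol, is made mainly by liver and fat. In the kidney libraries it had 1, 10 and 17 counts at 18 mo, 14, 19 and 66 counts at 21 mo, and 64, 7 and 28 counts with O304. These are 0.0619 to 0.962 CPM, 0.937 to 3.02 CPM and 0.417 to 3.72 CPM, with overlap between the groups of each pair. The fitted differences were 1.61 for 21 mo against 18 mo, 0.22 (SE 0.87, edgeR adjusted p = 0.897) for O304 against 21 mo and 1.83 (SE 0.94, edgeR adjusted p = 0.574) for O304 against 18 mo. The first ran from 0.85 without 21 mo replicate 3 to 2.31 without 18 mo replicate 3, the second from -0.64 without O304 replicate 1 to 0.97 without 21 mo replicate 3, and the third from 0.98 without O304 replicate 1 to 2.52 without 18 mo replicate 3. The libraries highest in Rbp4 within the O304 group, replicates 1 and 3, were also those with the most adipocyte signal. Summed over 8 adipocyte markers, the level was 150.1, 10.3 and 123 CPM with O304, 1.54, 2.78 and 6.18 CPM at 21 mo, where Lep and Cidea were at 0 in every library, and 0.805, 0.123 and 9.33 CPM at 18 mo. The 5 hepatocyte markers summed to 33.2 to 72.0 CPM at 18 mo, 33.1 to 177 CPM at 21 mo and 42.9 to 104 CPM with O304. The part of these cells in Rbp4 was not tested.

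Crabp2 (chr3:87948666-87953376, plus strand), which hands retinoic acid to its receptors, had 0, 1 and 0 counts at 18 mo, 0, 1 and 11 counts at 21 mo, and 0 counts in every O304 library, which allows up to 0.174, 0.179 and 0.191 CPM in O304 replicates 1, 2 and 3. As for Dhrs9, most counts came from 21 mo replicate 3, and no fold is given for a group at the floor.

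Of the 9 members, 7 passed the filter on low counts. In edgeR, 1 of them passed an adjusted p of 0.05 for 21 mo against 18 mo, where 0.0189% of the 15902 genes tested did, 3 genes in all, and nothing is read from that count since the members were chosen there. For O304 against 21 mo, and likewise for O304 against 18 mo, edgeR called 0 of the 7, and 0% of all genes tested. At an unadjusted p under 0.05 there were 4 of 7 members for O304 against 21 mo, beside 3289 of 15902 genes, and 2 of 7 for O304 against 18 mo, beside 1536. DESeq2 called 2 members, Aldh1a1 and Aldh1a2, for O304 against 21 mo and 1, Aldh1a1, for O304 against 18 mo, beside 896 and 118 genes in all, and limma voom with sample quality weights called 4 and 1, beside 6528 and 415 genes. Libraries of the groups did not overlap for 2 of 7 members in each O304 comparison, where 21.3% of all genes tested did not overlap for O304 against 21 mo and 26.5% for O304 against 18 mo. For 21 mo against 18 mo it was 3 of 7, where 28.8% of all genes tested did not overlap. The median difference of the 7 was 1.61, -0.34 and 0.36 in the 3 comparisons, and that of all genes tested 0.03, -0.02 and 0.00.

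**Figure D3:**
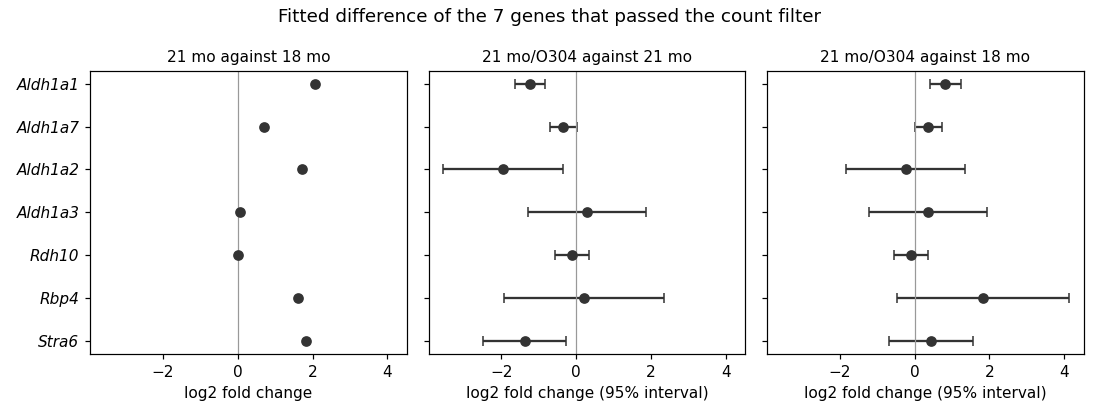
Fitted log2 fold change (x axis) of the 7 members that passed the filter (y axis) in the 3 comparisons, with 95% intervals derived from the edgeR fit in the O304 comparisons and none for 21 mo against 18 mo, by which the genes were chosen. For O304 against 21 mo the interval of Aldh1a1 runs from -1.63 to -0.83 and that of Aldh1a2 from -3.56 to -0.34. Neither difference passed the adjusted threshold in edgeR, and Aldh1a2 in 21 mo replicate 1 (8.50 CPM) lay within the O304 range (4.77 to 11.4 CPM).

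Across the 9 libraries, which fall into 3 groups, the log2 levels of Aldh1a1 and Aldh1a7 had a Pearson correlation of 0.92 (Spearman 0.88), and those of Aldh1a2 and Stra6 of 0.85 (0.47). Aldh1a1 and Aldh1a2 had 0.38 (-0.03), and Aldh1a1 and Stra6 0.71 (0.75). Set beside the marker sums, Aldh1a2 had 0.97 (0.92) with the fibroblast markers, 0.93 (0.33) with 5 urothelial, 0.90 (0.60) with 4 mesothelial and -0.90 (-0.15) with the proximal tubule markers. Urothelial markers summed to at most 2.60 CPM at 18 mo and 1.49 CPM with O304, and reached 199 CPM in the 21 mo group, and mesothelial markers reached 57.1 CPM there, against at most 11.7 CPM elsewhere. Stra6 had 0.88 (0.70) with the urothelial, 0.87 (0.92) with the macrophage, 0.86 (0.68) with the mesothelial, 0.84 (0.45) with the fibroblast and -0.83 (-0.55) with the proximal tubule markers. The macrophage markers summed to 384, 445 and 1236 CPM at 21 mo and to 195 to 301 CPM in the other 6 libraries. For Aldh1a1 the values were 0.71 (0.78) with the injured tubule, 0.65 (0.87) with the macrophage, 0.59 (0.62) with the urothelial, 0.37 (-0.02) with the fibroblast and -0.54 (-0.72) with the proximal tubule markers. Several of these values rest on 21 mo replicate 3, in which they are extreme, and are given over 9 libraries as a description. The 8 adrenal cortex markers summed to 3.51 to 4.21 CPM at 18 mo, 3.48 to 6.37 CPM at 21 mo and 3.69 to 4.94 CPM with O304. Star was the most abundant of them in every library, while Cyp11b2 and Nr5a1 were at 0 in every library. Their sum had 0.45 (0.23) with Aldh1a1, 0.67 (0.33) with Aldh1a2 and 0.62 (0.28) with Stra6.

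**Figure D4:**
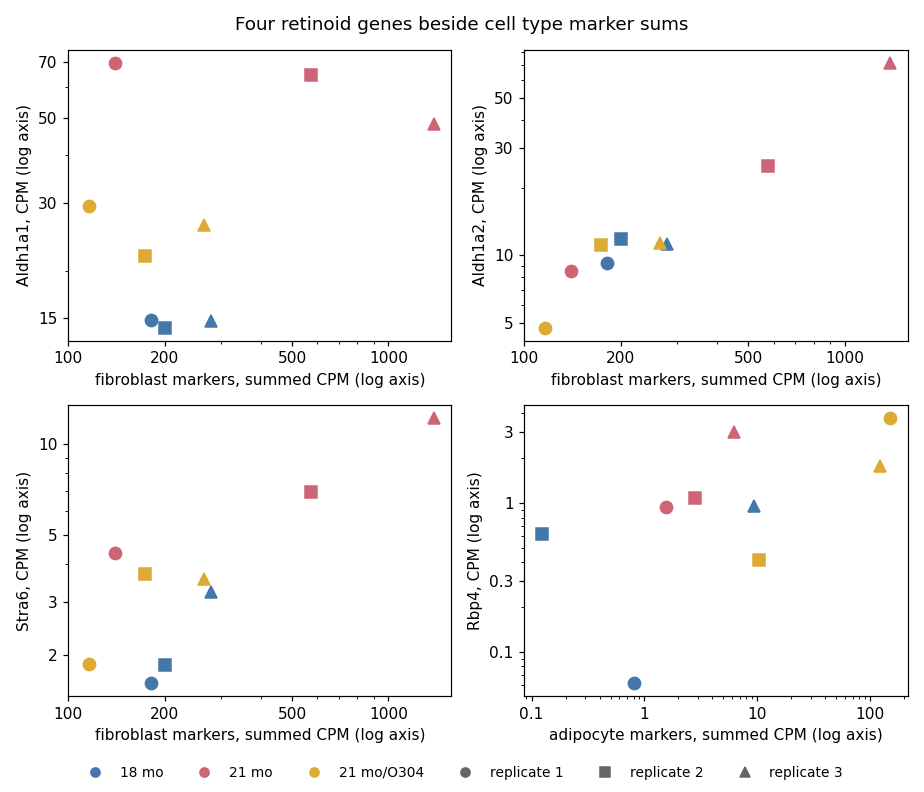
Level of Aldh1a1, Aldh1a2, Stra6 and Rbp4 in CPM (y axes, log) against the summed CPM of fibroblast markers, or of adipocyte markers for Rbp4 (x axes, log); each point is 1 library, its colour the group and its shape the replicate. Aldh1a2 follows the fibroblast sum from 116 to 1389 CPM, while the 21 mo libraries are the 3 highest in Aldh1a1 at fibroblast sums of 140.3, 575 and 1389 CPM.

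The 5 protein-coding genes whose log2 levels were most like those of Aldh1a1 over the 9 libraries, of 13188 with a mean of at least 1 CPM, were Hfe (Pearson 0.956), an iron-regulating MHC class I-like protein, Atp8a1 (0.946), a phospholipid flippase, Wdr26 (0.946), a ubiquitin ligase subunit, Dync1i2 (0.937), a dynein chain, and Ints14 (0.936), an Integrator subunit. Hfe was at 25.8, 23.7 and 28.2 CPM at 18 mo, 38.7, 36.7 and 37.8 CPM at 21 mo, and 30.8, 28.6 and 31.1 CPM with O304. It had the same order of the groups as Aldh1a1, over a smaller range. No other retinoid gene was among these 5.

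The wider retinoid pathway was described with a list of 54 further genes, of which 38 passed the filter. edgeR called 0 of the 38 in each comparison. For 21 mo against 18 mo, 16 were fitted higher and 22 lower, with a median of -0.12, 8 had an unadjusted p under 0.05 beside 4147 of all 15902 genes tested, and 10 did not overlap, beside 28.8% of all genes. DESeq2 called 5 and limma voom with sample quality weights 19 of them, beside 11.7% and 52.9% of all genes. For O304 against 21 mo, 20 were fitted higher and 18 lower, with a median of 0.14. An unadjusted p under 0.05 was found for 9 of the 38, beside 3289 of all 15902 genes, and 8 of the 38 did not overlap, beside 21.3% of all genes. For O304 against 18 mo, 21 were fitted higher and 17 lower, with a median of 0.06, 1 of the 38 had an unadjusted p under 0.05, beside 1536 of all genes, and 4 did not overlap, beside 26.5%. DESeq2 called 0 of the list in both O304 comparisons, and limma voom with sample quality weights called 24 and 0, beside 41.1% and 2.61% of all genes.

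Among 13 tested genes for the interconversion of retinol and retinal, 11 were fitted lower at 21 mo than at 18 mo and 2 higher. For O304 against 21 mo, 10 were fitted higher and 3 lower. edgeR called 0 of the 13 in both comparisons. The groups did not overlap for 4 and 3 of them, beside 28.8% and 21.3% of all genes tested. Both comparisons use the same 21 mo libraries, which favours opposite directions. In 21 mo replicate 1 some were above the 18 mo mean in log2 CPM (Rdh16f2 by 2.14, Rdh7 by 1.15, Rdh16 by 0.68). Others were below it there (Rdh1 at -0.6, Adh1 at -0.5, Dhrs4 at -0.49). Dhrs4, a retinal reductase, was at 259, 327 and 262 CPM at 18 mo, 200.1, 128 and 64.2 CPM at 21 mo, and 219, 227 and 296 CPM with O304. The 21 mo libraries were below all others, and the fitted difference was -1.11 against 18 mo (edgeR adjusted p = 0.103) and 0.92 for O304 against 21 mo (edgeR adjusted p = 0.205). Adh1, an alcohol dehydrogenase that oxidises retinol, was at 374 to 474 CPM at 18 mo, 157 to 332 CPM at 21 mo and 408 to 619 CPM with O304, again with the 21 mo libraries lowest. Its differences were -0.70 (edgeR adjusted p = 0.176) and 0.89 (edgeR adjusted p = 0.182). Adh7 had means of 2.74 CPM at 18 mo, 2.16 CPM at 21 mo and 4.07 CPM with O304. Its difference for O304 against 21 mo ran from 0.66 to 1.15 when 1 library was left out. Rdh11, a retinal reductase, was an exception, with means of 14.5 ± 2.20 CPM at 18 mo, 25.6 ± 3.72 CPM at 21 mo and 17.9 ± 4.34 CPM with O304 (SD, n = 3), and a difference of 0.81 for 21 mo against 18 mo (edgeR adjusted p = 0.0775). In 21 mo replicate 3, where the proximal tubule markers were lowest, Dhrs4 and Adh1 were also at their lowest, and the part of those cells was not tested.

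For storage, Lrat, which esterifies retinol, was at 3.65, 3.70 and 2.66 CPM at 18 mo, 5.89, 2.27 and 0.550 CPM at 21 mo, and 7.50, 2.62 and 5.48 CPM with O304. Lrat was lowest in 21 mo replicate 3, and it did not separate the groups. Scarb1, a lipoprotein receptor that also takes up carotenoids, was at 17.6 to 32.1 CPM at 21 mo and 11.1 to 16.7 CPM with O304, a difference of -0.77 (edgeR adjusted p = 0.182).

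For removal and reception of retinoic acid, Cyp26b1, which degrades it, was at 13.3, 12.9 and 6.56 CPM at 18 mo, 6.29, 2.90 and 3.34 CPM at 21 mo, and 5.70, 18.9 and 9.04 CPM with O304. Each 21 mo library was below each 18 mo library, while O304 and 21 mo overlapped. The difference was -1.39 for 21 mo against 18 mo (SE 0.50, edgeR adjusted p = 0.127) and 1.43 for O304 against 21 mo (SE 0.50, edgeR adjusted p = 0.188). The latter was 0.81 without O304 replicate 2, and 1.83 without 21 mo replicate 1, where it passed in edgeR, as did 23.1% of all genes. Of the receptors, Rxrb was at 61.3, 60.4 and 65.8 CPM at 18 mo, 43.3, 40.3 and 47.5 CPM at 21 mo, and 45.6, 48.3 and 58.4 CPM with O304, and had the smallest adjusted p of the list for 21 mo against 18 mo (difference -0.52, edgeR adjusted p = 0.0716). Rxra was lower at 21 mo in every library, with differences of -0.65 against 18 mo (edgeR adjusted p = 0.123) and 0.60 for O304 against 21 mo (edgeR adjusted p = 0.204). Rarb, itself induced by retinoic acid, was at 0.924 to 5.14 CPM at 18 mo, 1.67 to 4.40 CPM at 21 mo and 1.40 to 3.34 CPM with O304, with wide overlap. Of the other genes known to respond to retinoic acid, Nrip1 was at 32.5 to 40.1 CPM at 18 mo, 45.9 to 54.2 CPM at 21 mo and 38.1 to 42.9 CPM with O304, a difference of 0.45 for 21 mo against 18 mo (edgeR adjusted p = 0.0810). Tgm2 was at 189 to 241 CPM at 18 mo, 194 to 245 CPM at 21 mo and 175 to 184 CPM with O304, and its difference for O304 against 21 mo was -0.31 (edgeR adjusted p = 0.265).

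**Figure D5:**
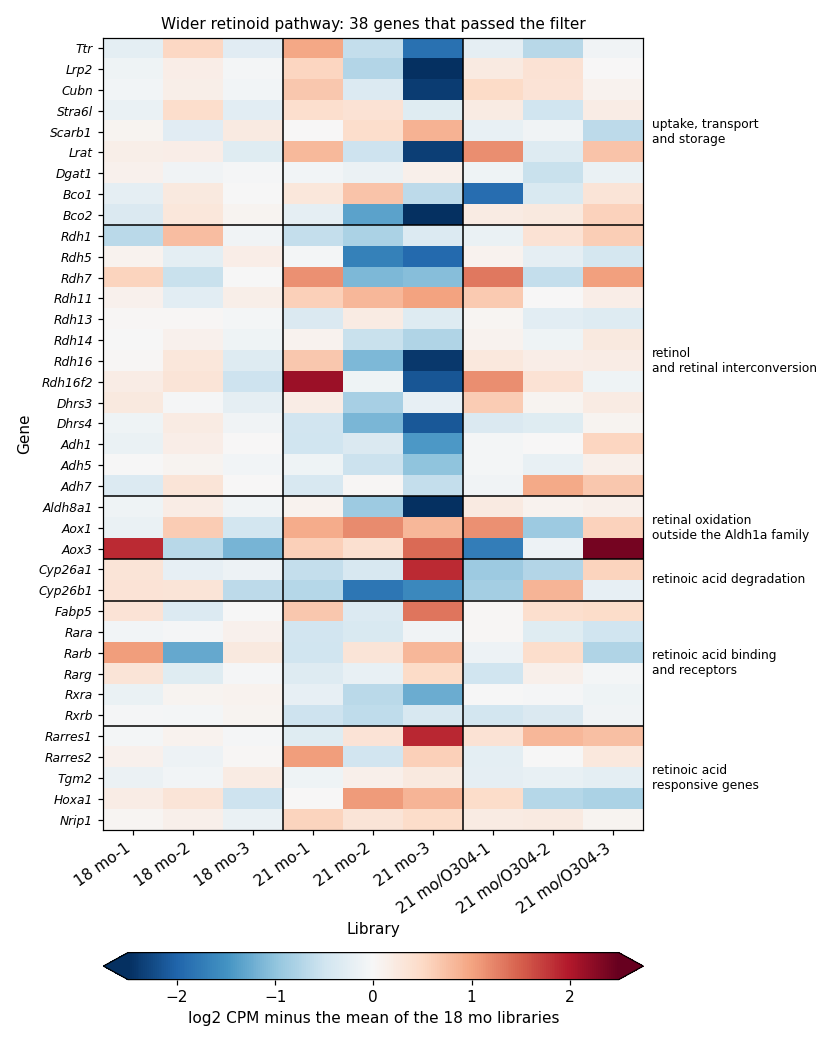
Level of the 38 wider pathway genes that passed the filter (y axis, ordered by role) in each library (x axis), as log2 CPM minus the mean of the 18 mo libraries (colour, blue lower and red higher, ends of the scale capped). The darkest cells are mostly in 21 mo replicate 3, where Lrat is at 0.550 CPM and Dhrs4 at 64.2 CPM.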

How the data were processed

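The authors cleaned the reads, aligned them with HISAT2 2.0.5 and counted them on genes of GRCm38 with featureCounts 1.5.0-p3 per the labels, and deposited raw counts per gene and library. The deposited FPKM values are the authors' counts per length and library size. The deposited table also holds the authors' group means of scaled counts (a signal), log2 fold changes and p-values of their own DESeq2 1.20.0 comparisons, which were not used. Handling of strand and of multi-mapping reads is not given in the sources used here.

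The members and gene lists were chosen with earlier results of these data known. Of 54532 genes, 15902 passed edgeR's filterByExpr (minimum count 10, minimum total 15). Counts were normalized by TMM and tested with the edgeR 4.0.16 quasi-likelihood test (R 4.3.3) on all 9 libraries with 3 group means and 6 residual degrees of freedom, two-sided, with Benjamini-Hochberg adjustment over all genes tested. Log2 CPM has a prior count of 2. A group with at most 3 counts in every library is at the floor. Exact permutation tests are two-sided on mean log2 CPM. The genes named are all 9 members, the 5 wider pathway genes with the smallest p per comparison plus Lrat, Cyp26b1 and Rarb (Dgat1 and Rara, also named by this rule, are given under the alternatives only), and the 5 genes most like Aldh1a1. The wider list omits 1 item that is not reported here. Alternatives were DESeq2 1.42.0, other scalings and filters, limma 3.58.1 with voom quality weights or on log2(FPKM + 1) and log2(FPKM + 0.1), the 6 libraries compared, the replicate block and leaving out each library. The edgeR test was tried on simulated counts first.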

Additional observations from a re-analysis of the deposited data

How the results depend on the processing

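For 21 mo against 18 mo, edgeR called 1 of the members and 0 of the wider list. DESeq2 called 4 members (11.7% of all genes), and limma voom with sample quality weights 4 (52.9%). With every gene that had at least 1 count, 3 were called (2.04%). With only the 6 libraries compared, edgeR called 0 members and 0% of all genes. When 1 library was left out, 0 to 4 members were called. The number was 0 without 18 mo replicate 1, 2 or 3 (0% of all genes each) or 21 mo replicate 2 (0.00614%). It was 2 without 21 mo replicate 3 (0.806%) and 4 without 21 mo replicate 1 (25.4%). The wider list had 5 calls with DESeq2, 19 with voom and 0 to 12 when 1 library was left out, 12 of them without 21 mo replicate 1. For O304 against 21 mo, DESeq2 called 2 members (5.20% of all genes) and voom 4 (41.1%). With every gene that had at least 1 count, 1 member was called (0.0602%). When 1 library was left out, 0 to 3 members were called. The number was 3 without 21 mo replicate 1 (23.1%) and 1 without 21 mo replicate 3 (0.00620%). The wider list had 24 with voom and 0 to 10 when 1 library was left out, 10 without 21 mo replicate 1. For O304 against 18 mo, DESeq2 and voom each called 1 member (0.805% and 2.61% of all genes). Leaving out 21 mo replicate 1 moved the calls over all genes from 3 to 4186 for 21 mo against 18 mo and from 0 to 3808 for O304 against 21 mo. The cause was not tested.

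Same-numbered libraries of different groups had correlations of -0.13 to 0.17 between their deviations from the group means, and differently numbered ones -0.26 to 0.20. With so few libraries per group, this cannot show whether a number marks a shared batch. With the replicate block edgeR called 0 members and 0 wider genes in every comparison, and 0% of all genes tested. Aldh1a1 for 21 mo against 18 mo then had a log2 difference of 2.05. That difference was 1.72 to 2.18 under all alternatives.

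Of the log2 differences under the alternatives, 1094 kept their direction and side of the threshold, 58 gained a call, 6 lost it, all of them Aldh1a1 for 21 mo against 18 mo, and 30 turned direction. With another setting, for 21 mo against 18 mo, Aldh1a3 was -0.59 with voom, Rdh10 -0.02 on both FPKM scales and Dgat1 0.01 with upper-quartile normalization, and for O304 against 18 mo Cyp26b1 was -0.02 on log2(FPKM + 1) and -0.06 on log2(FPKM + 0.1). The others turned when 1 library was left out, over which the difference for 21 mo against 18 mo ran from -0.26 to 0.52 for Aldh1a3, -0.10 to 0.17 for Rdh10, -0.13 to 0.02 for Dgat1, -0.01 to 0.22 for Tgm2, -1.24 to 0.27 for Lrat and -0.40 to 0.67 for Rarb. Without 21 mo replicate 3 alone it was -0.01 for Tgm2 and 0.27 for Lrat. For O304 against 21 mo it ran from -0.62 to 0.63 for Aldh1a3, -0.64 to 0.97 for Rbp4 and -0.10 to 0.20 for Rara. For O304 against 18 mo it ran from -0.42 to 0.07 for Aldh1a2, -0.54 to 0.83 for Aldh1a3, -0.01 to 0.30 for Adh1, -0.56 to 0.36 for Cyp26b1 and -0.79 to 0.28 for Rarb. Without 21 mo replicate 1, edgeR also called Dhrs4, Rxra and Cyp26b1 in both comparisons with the 21 mo group, Rxrb, Rdh11 and Nrip1 for 21 mo against 18 mo and Scarb1 for O304 against 21 mo. It then called 25.4% of all genes for 21 mo against 18 mo and 23.1% for O304 against 21 mo. Dhrs9 and Crabp2 were at or near the floor of 3 counts in most libraries, and differences of these genes were not detectable at this depth.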

Other observations

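The protein-coding neighbours of Aldh1a1 and Aldh1a7 within 500000 bases were Anxa1 and Tmc1, looked at after the values of the Aldh1a genes were known. Anxa1 (chr19:20373428-20390944, minus strand), which encodes the calcium-dependent phospholipid-binding protein annexin A1, was at 9.48, 8.13 and 10.9 CPM at 18 mo, 15.5, 21.7 and 149 CPM at 21 mo, and 9.65, 16.3 and 20.1 CPM with O304. Its highest level was in 21 mo replicate 3, where Aldh1a1 was at its lowest within the 21 mo group. The fitted differences of Anxa1 were 2.71 for 21 mo against 18 mo (edgeR adjusted p = 0.0904), -2.02 for O304 against 21 mo (edgeR adjusted p = 0.202) and 0.69 for O304 against 18 mo (edgeR adjusted p = 0.819). Tmc1, on the far side of Aldh1a7, had at most 2 counts in any library. The antisense gene C730002L08Rik and the pseudogene Gm6684 had 0 counts throughout.

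Among the genes that degrade retinoic acid, the 2 tested CYP26 genes parted in 21 mo replicate 3. Against the 18 mo mean in log2 CPM, Cyp26a1 was at -0.6, -0.41 and 1.87 in 21 mo replicates 1, 2 and 3. Cyp26b1 was at -0.72, -1.81 and -1.61, so both were below that mean in 21 mo replicates 1 and 2. Cyp26a1 had 18, 12 and 14 counts at 18 mo, 8, 11 and 76 counts at 21 mo, and 7, 8 and 21 counts with O304, so that its highest count was in 21 mo replicate 3, whereas Cyp26b1 was at 6.29, 2.90 and 3.34 CPM in the 21 mo libraries. Cyp26a1 was chosen here after its values were seen.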
